A study of Mus musculus with 65 samples.

Results

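The neurotrophin gene Bdnf and the Trk receptor genes Ntrk2 and Ntrk3 were followed in single HSD2 neurons, the aldosterone-sensing neurons of the nucleus of the solitary tract (NTS), where visceral afferents enter the brainstem. The members were 3 genes chosen by name, and all 3 were among the 11875 genes measured. Ntrk2, the gene of the BDNF receptor TrkB, was detected in 65 of 65 neurons. Ntrk3, the gene of TrkC, was detected in 61 neurons, and Bdnf itself in 51. The 3 transcripts were detected together in 48 of 65 neurons (73.8%). In 9 low-sodium neurons the deposited values sum to more than those of the other cells. Of these 9, 6 had Bdnf at 0, and 7 had Ntrk2 above every other low-sodium neuron on the deposited scale. By share of a cell's reads, not all of these 7 did.

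The 65 neurons came from male mice of mixed strain that carried Hsd11b2-Cre and the Ai9 allele, from which cells with a history of Cre make red fluorescent tdTomato, and both diets share these alleles. The diet label puts 32 neurons in the low sodium group and 33 in the standard chow group. Red cells were picked by hand from papain-digested tissue, and each cell became 1 Smart-Seq2 library, a method for full-length cDNA, with Nextera XT. The labels give no age, length of diet or animal, so each diet counts as 1 sample, cells are not replicates, and no test between groups was run. The tissue label, which was followed, is the NTS for every cell, while the protocol label speaks of Arc-ME.

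Because the reporter marks any cell in which Cre has ever acted, the identity of the cells was checked against markers. All 65 neurons had at least 3 of 7 measured neuron markers above 10 CPM. CPM are by name read counts scaled to a total of 1000000 per cell, but the deposited sums differ, as given below. Hsd11b2, the enzyme that gives these neurons their aldosterone selectivity, and Slc17a6, the vesicular glutamate transporter of hindbrain excitatory neurons, were detected in all 65. The deposited values are log2(CPM + 1), and every level below is on that scale unless another is named. Reads recovered from those values ran from 50537 to 5317020 in low-sodium neurons, with a median of 693738, and from 50072 to 3239582 in chow neurons, with a median of 602275.

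The CPM of a cell summed to between 1393471 and 2170050 in 9 low-sodium neurons (numbers 42, 45 to 51 and 57 in the labels), called high-sum neurons here, against 754874 to 1147326 in the other 56 neurons. A limit of 1200000, chosen with the values known, separates them. A CPM sum above 1000000 means that the scaling used some other total than a cell's own reads, which the sources used here do not give. The sum was also above 1000000 in 8 of the other 56 neurons, 3 low-sodium and 5 chow. High-sum neurons had 218805 to 697726 reads, with a median of 454173, against a median of 1088324 in the other 23 low-sodium neurons. Hsd11b2 was 10.20 ± 1.14 in high-sum neurons (SD over cells, n = 9), against 8.59 ± 0.97 in the other low-sodium neurons (n = 23) and 8.69 ± 1.01 in chow neurons (n = 33). Their depth lies inside the range of the other neurons. They stand apart in the sum, and results that rest on them are given with and without them.

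BDNF is a secreted growth factor of neurons, made as a precursor that proteases cut to the mature form and released in part by activity. It binds TrkB, a receptor tyrosine kinase that signals through adaptor proteins to the Ras, PI3-kinase-Akt and phospholipase C pathways. TrkC is the main receptor of the related neurotrophin-3. In the NTS, BDNF is known from rodent work as a factor of visceral sensory afferents and of food intake circuits. Both Ntrk2 and Ntrk3 also give rise to receptors truncated before the kinase, and truncated TrkB is the chief form in astrocytes.

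Bdnf (ENSMUSG00000048482.14) lies at chr2:109674700-109727007 on the plus strand of GRCm38, by the GENCODE vM21 annotation. It has 11 annotated transcripts, all coding, that begin at 9 distinct starts and share the coding exon at the end of the gene. Ntrk2 (ENSMUSG00000055254.15) lies at chr13:58806569-59133970 on the plus strand, with 10 transcripts, 7 of them coding. The longest coding form of Ntrk2 has 821 codons, which holds the kinase, and 2 shorter forms have 476 codons. Ntrk3 (ENSMUSG00000059146.12) lies at chr7:78175959-78738012 on the minus strand, with 20 transcripts, 6 of them coding. Its coding forms run from 82 to 864 codons. The deposited values are per gene, so full-length and truncated receptors cannot be told apart in them, nor can the start from which Bdnf was transcribed. An antisense gene, Gm45346, shares exon bases with Bdnf, is not among the genes measured, and could add reads to Bdnf, since the sources used here do not say how strand was treated in counting.

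The use of several starts is the best known feature of Bdnf, and 1 of them is a classic target of the activity-regulated factor CREB. RefSeq windows of 250 bases before a start (GRCm38.p6) were at hand for 7 Bdnf starts and 1 Ntrk2 start. The letters TCACGTCA, a near form of the cAMP response element, were searched on both strands and found in 1 of the 7 Bdnf windows, against 0.350% of 32851 windows of all genes. The full palindrome TGACGTCA was in 0 of 7 Bdnf windows, against 1.55% of all windows. The core TGACG, which lies inside both longer motifs, was in 1 of 7 Bdnf windows and in 17.8% of all windows. The Ntrk2 window held none of these motifs. The search was made because Bdnf is a known CREB target, so these shares are a description and no enrichment is read from 1 window. The Bdnf window that holds the match is shown because it ends at the base before the start of the transcript Bdnf-209. It is printed with TCACGTCA in capitals, and the match begins 38 bases before the start, at chr2:109692186-109692435 on the plus strand.
Bdnf window: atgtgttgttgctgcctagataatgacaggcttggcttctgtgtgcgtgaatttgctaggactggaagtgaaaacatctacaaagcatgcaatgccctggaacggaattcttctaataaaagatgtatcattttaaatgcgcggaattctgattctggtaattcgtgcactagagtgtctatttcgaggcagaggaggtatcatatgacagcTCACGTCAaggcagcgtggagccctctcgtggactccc

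Bdnf varied more from neuron to neuron than either receptor gene. Over all 65 neurons its level was 4.59 ± 2.89, against 7.96 ± 1.55 for Ntrk2 and 6.69 ± 2.04 for Ntrk3 (SD over cells). The 14 neurons at 0 for Bdnf make up part of this spread, and the 51 with a read had 5.85 ± 1.78. The 95% exact (Clopper-Pearson) intervals of the detected shares were 66.5% to 87.7% for Bdnf, 94.5% to 100% for Ntrk2 and 85.0% to 98.3% for Ntrk3. Within a neuron, Ntrk2 had a median rank at the 93.7th percentile of all measured genes, Ntrk3 at the 86.6th and Bdnf at the 62.6th. These intervals cover counting error over cells only, since the reads carry no molecular identifiers and the animals are not named.

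Since the 3 genes differ in length, their levels were also compared per kilobase of exon. With the union of annotated exons as the length (6217 bases for Bdnf, 19292 for Ntrk2 and 30170 for Ntrk3), the median over all neurons was 14.1 CPM per kb for Ntrk2, 7.77 for Bdnf and 4.93 for Ntrk3. With the longest transcript of each gene it was 31.1, 11.3 and 7.56 CPM per kb, in the same order of genes. Ntrk2 was above Ntrk3 per kb in 55 of 65 neurons by exon union and in 58 by longest transcript. Ntrk2 was above Bdnf in 44 neurons by exon union and in 52 by longest transcript, so that order moves with the length used. By exon union it held in 9 of 9 high-sum neurons, in 11 of 23 other low-sodium neurons and in 24 of 33 chow neurons, and by longest transcript in 9, 17 and 26 of these. Ntrk3 was above Bdnf in 24 of 65 neurons by either length, made up of 7 of 9 high-sum neurons, 6 of 23 other low-sodium neurons and 11 of 33 chow neurons.

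**Figure D1:**
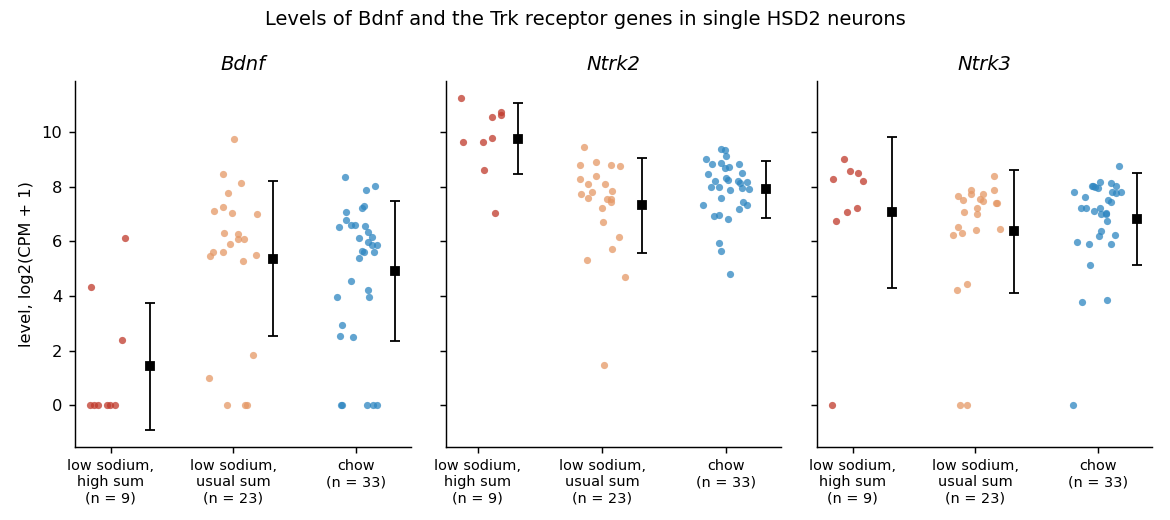
Levels of Bdnf, Ntrk2 and Ntrk3 as log2(CPM + 1), 1 point per neuron, in high-sum low-sodium, usual-sum low-sodium and chow neurons. Black squares are means and bars SD over cells. Most high-sum neurons lie at 0 for Bdnf (6 of 9) and, on the deposited scale, above every usual-sum low-sodium neuron for Ntrk2 (7 of 9).

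The first comparison asks whether sodium restriction, which raises aldosterone, goes with other levels of the ligand or its receptors in these neurons. Neither Bdnf nor either receptor gene differed by as much as 1 log2 unit between diets, whether the high-sum neurons were kept or left out. A mean difference of at least 1 in either direction was used as the mark of a difference, and 0 of the 3 members reached it. Over all 11875 genes, 10.2% reached it in this comparison, and the median difference of all genes was -0.12.

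In low-sodium neurons Bdnf had a lowest level of 0, a median of 5.55 and a highest level of 9.74, against 0, 5.86 and 8.34 in chow neurons. The ranges overlap almost wholly. The mean was 4.26 ± 3.21 in low-sodium neurons (n = 32) and 4.91 ± 2.55 in chow neurons (n = 33), a difference of -0.65. Bdnf was detected in 23 of 32 low-sodium neurons (71.9%, interval 53.3% to 86.3%) and in 28 of 33 chow neurons (84.8%, interval 68.1% to 94.9%). The intervals cover counting error only and do not compare diets. Without the high-sum neurons, Bdnf was 5.37 ± 2.82 in low-sodium neurons (n = 23) against 4.91 ± 2.55 in chow neurons, a difference of 0.46 with the other sign, and of -0.31 once neurons with at least 3 markers of a non-neuronal cell type above 10 CPM were also left out. The share of neurons with Bdnf was then 87.0% (20 of 23) in low-sodium neurons against 84.8% in chow neurons.

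Ntrk2 was detected in every neuron of both diets, from 1.49 to 11.26 with a median of 8.09 in low-sodium neurons, and from 4.80 to 9.38 with a median of 8.14 in chow neurons. The medians nearly coincide and the low-sodium neurons spread wider at both ends. The mean was 8.01 ± 1.96 in low-sodium neurons and 7.90 ± 1.05 in chow neurons, a difference of 0.11. Without the high-sum neurons the low-sodium mean was 7.32 ± 1.74, which is 0.58 below chow. The sign of the diet difference of Ntrk2 therefore also rests on the high-sum neurons.

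Ntrk3 ran from 0 to 9.00 with a median of 7.32 in low-sodium neurons, and from 0 to 8.75 with a median of 7.22 in chow neurons. It was at 0 in 3 low-sodium neurons (numbers 7, 13 and 51) and in 1 chow neuron (number 49). The mean was 6.57 ± 2.38 in low-sodium neurons and 6.81 ± 1.69 in chow neurons, a difference of -0.25, and of -0.44 without the high-sum neurons. Without those neurons, 9.11% of all genes differed by at least 1 between diets, and the median of all genes was -0.10.

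Of the 3 members, Bdnf and Ntrk2 differed most between the high-sum and the other low-sodium neurons, and in opposite directions. The split follows the scale of the deposited values and is not a group of the study, and the members were chosen with this pattern known, so it is a description. Bdnf was lower by 3.95 and Ntrk2 higher by 2.44 in the high-sum neurons, while Ntrk3 was higher by 0.70. Of the 3 members, 1 was higher and 1 lower by at least 1, where 40.0% of all genes differ by at least 1 between these cells (19.3% higher and 20.8% lower).

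Bdnf was at 0 in 6 of the 9 high-sum neurons (numbers 42, 45, 47, 49, 50 and 51). The others had 6.11 (number 46, 19 reads), 4.33 (number 48, 6 reads) and 2.40 (number 57, 1 read). In the 23 other low-sodium neurons Bdnf ran from 0 through a median of 6.09 to 9.74, with 3 neurons at 0. The ranges overlap, and 8 of 9 high-sum neurons lay below the median of the others. The mean was 1.43 ± 2.33 in high-sum neurons against 5.37 ± 2.82 in the other low-sodium neurons. This difference of -3.95 was the 4th lowest of 11875 genes.

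Depth bears on a gene at 0, and 3 reads were taken as the limit that a count of 0 allows. In the 6 high-sum neurons without Bdnf, 3 reads stand for 6.20 to 29.8 CPM, or 2.85 to 4.94 on the log2 scale. Bdnf was above the higher of these limits in 1 of 9 high-sum neurons, against 18 of 23 other low-sodium neurons and 21 of 33 chow neurons. Pooled over cells, Bdnf took 6.18 reads per 1000000 recovered reads in high-sum neurons (26 reads in all, 95% Poisson interval 4.04 to 9.05). Neuron 46 gave 19 of the 26 reads, and without it the value was 1.86 (7 reads, interval 0.750 to 3.84). It took 120 per 1000000 in the other low-sodium neurons (5058 reads, interval 117 to 124) and 94.4 per 1000000 in chow neurons (2632 reads, interval 90.9 to 98.1). Leaving out 1 neuron at a time gave 92.0 (without number 12, which had 1620 reads) to 133 in the other low-sodium neurons. In chow neurons it gave 81.8 to 107, so no direction is read between these groups. Reads per 1000000 recovered reads do not use the deposited scale, and the intervals cover counting error only. Among usual-sum neurons whose depth lay within that of the high-sum neurons, a comparison added after the values were seen, Bdnf was detected in 5 of 6 low-sodium and 10 of 12 chow neurons, against 3 of 9 high-sum neurons. With every neuron thinned to 50000 reads, Bdnf was detected in 11.1% of high-sum neurons, against 78.3% of the other low-sodium and 72.7% of chow neurons. The difference between high-sum and depth-matched low-sodium neurons was -3.01.

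**Figure D2:**
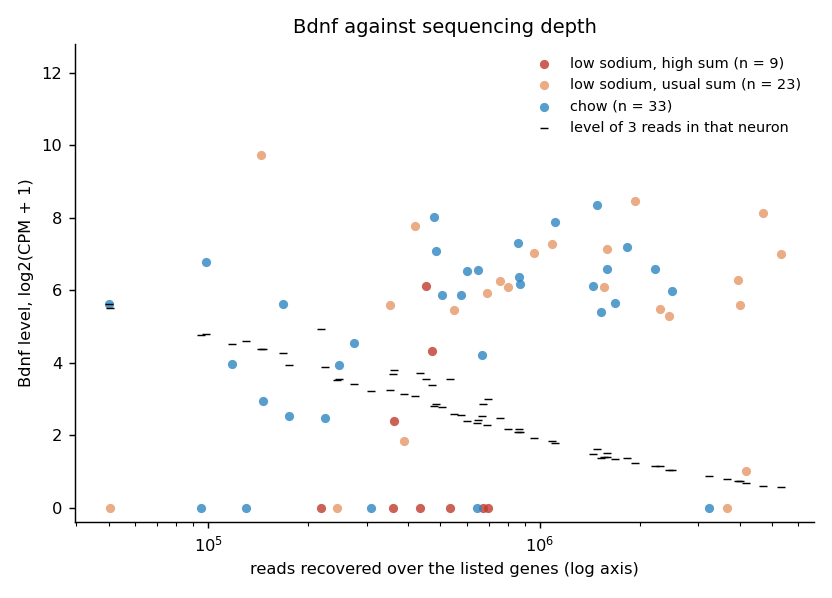
Bdnf level as log2(CPM + 1) against recovered reads per neuron on a log axis, coloured by group, with short black bars at the level that 3 reads stand for in each neuron. The high-sum neurons lie in the middle of the depth range, between 218805 and 697726 reads, where 5 of 6 usual-sum low-sodium and 10 of 12 chow neurons have Bdnf.

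Ntrk2 in the 9 high-sum neurons was 11.26 in number 46, 10.73 in 47, 10.61 in 50, 10.56 in 57, 9.79 in 51, 9.65 in 42, 9.64 in 49, 8.60 in 48 and 7.03 in 45. The other low-sodium neurons ran from 1.49 through a median of 7.74 to 9.44. On the deposited scale, 7 of the 9 were above the highest of the others, and number 45 alone was below their median. By share of recovered reads, numbers 46, 47, 50 and 57 stayed above low-sodium neuron 9, the highest of the others (1733 of 2302948 reads). Numbers 42 (198 of 434600 reads), 49 (202 of 361253) and 51 (89 of 218805) did not. The mean was 9.76 ± 1.29 in high-sum neurons against 7.32 ± 1.74 in the other low-sodium neurons, and 95.3% of all genes had a smaller difference. Pooled Ntrk2 was 753 reads per 1000000 recovered reads in high-sum neurons (interval 727 to 780), against 264 in the other low-sodium neurons (interval 260 to 269) and 340 in chow neurons (interval 333 to 347). Leaving out 1 neuron at a time gave 662 to 853 in high-sum neurons. It gave 236 to 287 in the other low-sodium neurons and 316 to 361 in chow neurons. The difference of 2.44 on the deposited scale was 1.59 once every cell was scaled to the same sum. Pooled reads do not use the deposited scale, and the part of the scale in the Ntrk2 difference was not tested.

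Ntrk3 in high-sum neurons ran from 0 through a median of 8.21 to 9.00, against 0, 7.21 and 8.40 in the other low-sodium neurons. The groups overlap, and the SDs of 2.76 and 2.25 exceed the difference of 0.70. Pooled Ntrk3 was 172 reads per 1000000 recovered reads in high-sum neurons, 158 in the other low-sodium neurons and 147 in chow neurons. The difference was -0.03 once every cell was scaled to the same sum, and 1.58 without neuron 51, where Ntrk3 was at 0, so no direction is given for Ntrk3.

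The same contrast was read within each neuron. Ntrk2 exceeded Bdnf within the same neuron by 8.34 ± 2.37 in high-sum neurons, in 9 of 9. It exceeded Bdnf by 1.95 ± 3.48 in the other low-sodium neurons, in 18 of 23, and by 2.99 ± 2.68 in chow neurons, in 29 of 33. The rank of Bdnf within a neuron had a median at the 22.6th percentile in high-sum neurons, against the 66.7th in the other low-sodium neurons and the 64.6th in chow neurons. For Ntrk2 these medians were the 97.6th, the 90.4th and the 94.1st percentile.

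The neurons nearest the limit on the sum are given as values. Just inside it, number 50 (sum 1393471) had Bdnf at 0, Ntrk2 at 10.61 and Ntrk3 at 8.21, and number 49 (sum 1423468) had Bdnf at 0, Ntrk2 at 9.64 and Ntrk3 at 7.08. Just outside it, low-sodium neuron 7 (sum 1147326) had Bdnf at 6.26, Ntrk2 at 7.60 and Ntrk3 at 0, and chow neuron 63 (sum 1058067) had Bdnf at 4.20, Ntrk2 at 9.11 and Ntrk3 at 7.03.

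Gene length went along with the difference between high-sum and other low-sodium neurons. In 5 equal bins of genes by exon length, the median difference was -0.61, -0.30, -0.11, 0.05 and 0.36, shortest genes first, over 11149 genes with a length (93.9%). Ntrk2 and Ntrk3 lie in the bin of longest genes, where 31.1% of genes were higher by at least 1 in high-sum neurons. Bdnf lies in the next bin, where 16.0% were lower by at least 1. The part of length in the difference of a single gene was not tested.

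**Figure D3:**
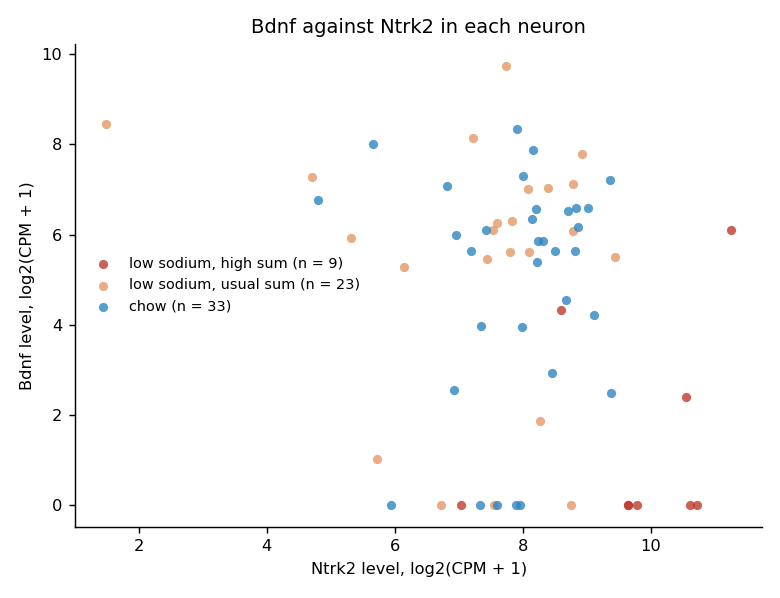
Bdnf against Ntrk2 in each neuron, both as log2(CPM + 1), coloured by group. Of the 9 high-sum neurons, 6 lie on the line of no Bdnf at Ntrk2 levels from 7.03 to 10.73, beside 3 usual-sum low-sodium and 5 chow neurons without Bdnf at Ntrk2 levels from 5.95 to 8.76, and low-sodium neuron 17 lies alone at Ntrk2 of 1.49.

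Detection of the ligand together with its receptor was common. Neurons with all 3 transcripts were 21 of 32 in the low-sodium group (65.6%, interval 46.8% to 81.4%) and 27 of 33 in the chow group (81.8%, interval 64.5% to 93.0%). The high-sum neurons gave 3 of 9, against 18 of 23 for the other low-sodium neurons (78.3%). Ntrk2 and Ntrk3 without Bdnf were found in 13 of 65 neurons, Bdnf and Ntrk2 without Ntrk3 in 3, and Ntrk2 alone in 1, low-sodium neuron 51. All 51 neurons with Bdnf also had Ntrk2, which follows from the presence of Ntrk2 in every neuron.

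Some neurons lay far from the rest. Low-sodium neuron 17 had the lowest Ntrk2 of all, 1.49, together with Bdnf at 8.46. Low-sodium neuron 5 had the highest Bdnf, 9.74. Low-sodium neuron 8 and chow neuron 12 had no Bdnf read at 3651803 and 3239582 reads, so a count of 0 there allows less than 1 CPM. The other neurons without Bdnf were low-sodium neurons 31 and 35 and chow neurons 9, 32, 60 and 68.

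Across neurons the levels of the 3 members were close to unrelated, which is a description without a test, since cells share their animals, depth and scale. Spearman's rho of Bdnf with Ntrk2 was -0.15 over 65 neurons, 0.02 over the 56 usual-sum neurons and 0.07 over chow neurons alone. For Bdnf with Ntrk3 it was -0.04, 0.09 and 0.18. For Ntrk2 with Ntrk3 it was 0.17, 0.16 and -0.07. Bdnf had a rho of 0.36 with the number of reads, and Ntrk2 a rho of 0.52 with the CPM sum, both larger than any rho between members over all 65 neurons. Within the 23 usual-sum low-sodium neurons Ntrk2 and Ntrk3 had a rho of 0.53.

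The genes whose levels most resembled each member were taken by Spearman's rho over 65 neurons among 8200 genes detected in at least 33. For Bdnf they were Dnaaf2 (rho 0.62), Vgf (0.60), Cct2 (0.56), Necap1 (0.54) and Tmem126a (0.54). Vgf, a secreted neuropeptide precursor induced by neurotrophins, is also in the list of BDNF-induced targets, and its rho with Bdnf was 0.51 over the 56 usual-sum neurons. For Ntrk2 they were Ep300 (rho 0.60), Ablim1 (0.60), Rgma (0.56), Cmtm4 (0.54) and Psap (0.53), and for Psap the value over usual-sum neurons was 0.38. For Ntrk3 they were Adgra1 (rho 0.62), Snhg11 (0.57), Meg3 (0.56), Grik4 (0.54) and Miat (0.53), and Snhg11 had a rho of 0.63 over usual-sum neurons. Snhg11, Meg3 and Miat are long noncoding RNAs.

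Ntrk2 is also made by astrocytes, so glial transcripts were counted beside it. At least 3 of 10 astrocyte markers were above 10 CPM in 4 of 9 high-sum neurons, 8 of 23 other low-sodium neurons and 13 of 33 chow neurons. The summed log2 level of the 10 markers ran from 7.15 to 28.9 with a median of 18.9 in high-sum neurons. It ran from 0 to 66.7 with a median of 11.8 in the other low-sodium neurons, and from 4.59 to 75.9 with a median of 14.8 in chow neurons. Slc1a3, the glutamate transporter GLAST, Gja1, the gap junction protein connexin 43, and Aldh1l1 were at 0 in all 9 high-sum neurons. Slc4a4, a bicarbonate transporter also on the list, was in 9 of 9 high-sum neurons at 9.32 ± 1.15, against 5.44 ± 1.93 in the other low-sodium neurons and 5.69 ± 2.34 in chow neurons. Slc1a2, the glutamate transporter GLT-1, was in 5 of 9, 17 of 23 and 16 of 33 of these neurons, and Aqp4, the water channel of astrocytes, in 2 of 9, 4 of 23 and 14 of 33. Slc4a4 was detected in 62 of 65 neurons, so it enters the marker sum of nearly every neuron. In high-sum neurons its mean of 9.32 is a large part of the median sum of 18.9. Within high-sum neurons Ntrk2 was 9.22 ± 1.52 with astrocyte markers (n = 4) and 10.20 ± 1.04 without them (n = 5). In the other low-sodium neurons it was 8.19 ± 0.81 with them (n = 8) and 6.86 ± 1.94 without them (n = 15), and in chow neurons 8.19 ± 1.25 with them (n = 13) and 7.72 ± 0.88 without them (n = 20). The part of astrocyte transcripts in the Ntrk2 level was not tested.

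**Figure D4:**
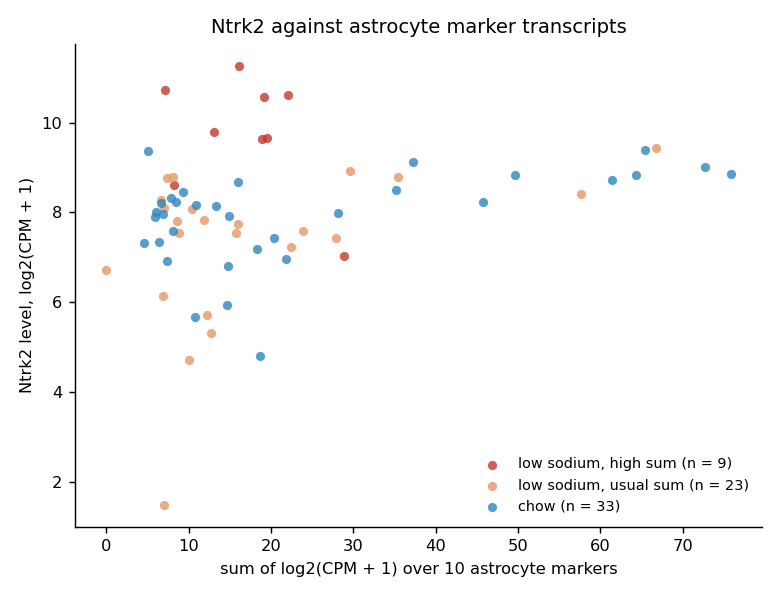
Ntrk2 level as log2(CPM + 1) against the sum of log2(CPM + 1) over 10 astrocyte markers, 1 point per neuron. The sum includes Slc4a4, which was detected in 62 of 65 neurons. High-sum neurons lie at marker sums of 7.15 to 28.9 (median 18.9), the other low-sodium neurons at 0 to 66.7 (median 11.8) and chow neurons at 4.59 to 75.9 (median 14.8). On the deposited scale, 7 of 9 high-sum neurons have Ntrk2 above every other low-sodium neuron.

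Bdnf was also set beside glial transcripts, and the groups did not all go the same way. Among usual-sum low-sodium neurons Bdnf was 7.13 ± 1.44 in those with astrocyte markers (n = 8) and 4.43 ± 2.96 in those without them (n = 15). In chow neurons it was 5.50 ± 1.26 with them (n = 13) and 4.53 ± 3.10 without them (n = 20). In high-sum neurons it was lower with them, 0.60 ± 1.20 (n = 4) against 2.09 ± 2.93 (n = 5). At least 3 of 7 measured oligodendrocyte markers were above 10 CPM in 2 of 9 high-sum neurons, 11 of 23 other low-sodium neurons and 12 of 33 chow neurons. Their summed log2 level ran from 4.18 to 73.9 in high-sum neurons, from 5.52 to 41.9 in the other low-sodium neurons and from 0 to 68.7 in chow neurons. In neurons with no such set of markers of any non-neuronal type (4 high-sum and 10 other low-sodium neurons), Bdnf was 2.61 ± 3.10 in high-sum against 4.00 ± 3.00 in other low-sodium neurons. That difference was -1.39, against -3.95 in all low-sodium neurons, whereas Ntrk2 differed by 3.13. The part of non-neuronal transcripts in the Bdnf difference was not tested.

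Of the wider family of ligands and receptors, 7 of 12 listed genes were measured. Sort1, the gene of sortilin, a receptor and sorting protein of the BDNF precursor, was 5.12 ± 2.24 in low-sodium neurons and 4.69 ± 2.30 in chow neurons, a difference of 0.43. It was 7.38 ± 1.23 in high-sum neurons, against 4.23 ± 1.90 in the other low-sodium neurons, a difference of 3.15. Sorcs1, a sortilin relative, was 4.68 ± 2.26 in high-sum neurons and 3.12 ± 2.73 in the other low-sodium neurons, a difference of 1.56. Sorcs2, a co-receptor for the BDNF precursor, was detected in 15 of 65 neurons and Sorcs3 in 16, and both differed by less than 0.3 in every comparison made. Between diets 0 of the 7 differed by at least 1, against 10.2% of all genes.

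Genes that act before and after the receptors were followed in fixed lists. Without the members, 125 of 143 listed genes were measured. Between diets, 6 were higher by at least 1 in low-sodium neurons (4.8%) and 6 lower (4.8%), against 3.61% higher and 6.55% lower over all genes, with a median of 0.08. Without the high-sum neurons, 0 were higher and 5 lower, against 2.84% and 6.27% over all genes. The shares lie near those of all genes and are no result about the lists. Between high-sum and other low-sodium neurons, 33 of the 125 were higher (26.4%) and 13 lower (10.4%), against 19.3% and 20.8% over all genes, with a median of 0.33 against -0.15.

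Among genes of BDNF processing and release, 1 of 13 measured was lower (7.69%, against 6.55% of all genes) and 0 higher. That gene was Plat, tissue plasminogen activator, a protease that starts the cascade cutting the BDNF precursor. It was 0.95 ± 2.18 in low-sodium neurons and 3.18 ± 3.01 in chow neurons, detected in 7 of 32 and 21 of 33 neurons, and the difference of -2.23 was -2.29 without the high-sum neurons. Pcsk1, a prohormone convertase, was 3.82 ± 3.25 in low-sodium neurons and 4.52 ± 3.00 in chow neurons. Pcsk6, another convertase, was 0.89 ± 2.09 in low-sodium neurons and 1.58 ± 2.41 in chow neurons.

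Among Trk adaptors, 4 of 22 measured were higher and 0 lower in low-sodium neurons (Frs3, Gab2, Plcg1 and Sos2). The share higher was 18.2%, against 3.61% of all genes. Plcg1, the phospholipase that Trk receptors activate directly, was 6.88 ± 2.30 in low-sodium neurons and 5.48 ± 1.54 in chow neurons. Gab2, a docking protein, was 5.24 ± 3.38 in low-sodium neurons and 3.73 ± 2.84 in chow neurons, a difference of 1.51. Frs3, the docking protein FRS2 beta, differed by 1.19. Without the high-sum neurons these differences were 0.52 for Plcg1, 0.70 for Gab2 and 0.85 for Frs3, and 0 of 22 adaptors reached 1.

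Among kinases of the Trk cascades, 1 of 29 was lower (3.45%, against 6.55% of all genes) and 0 higher. Akt1 was 4.91 ± 2.57 in low-sodium neurons and 6.09 ± 1.47 in chow neurons, a difference of -1.18, or -0.70 without the high-sum neurons. Its relative Akt2 was 3.52 ± 2.53 in low-sodium neurons and 2.70 ± 2.49 in chow neurons. Among 19 measured Trk modulators, such as phosphatases and ubiquitin ligases, 0 reached 1 in either direction, against 10.2% of all genes. The largest differences among modulators in at least 16 neurons were 0.45 for Cbl, 0.44 for Ptprd and 0.40 for Traf6.

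Among genes that control Bdnf transcription, 2 of 23 were higher (Crtc2 and Ep300) and 2 lower (Bhlhe40 and Usf1). Each share was 8.70%, against 3.61% higher and 6.55% lower over all genes. Ep300, a histone acetyltransferase recruited by CREB, was 6.16 ± 2.33 in low-sodium neurons and 4.87 ± 2.12 in chow neurons, a difference of 1.29 that was 0.21 without the high-sum neurons. Crtc2, a coactivator of CREB, differed by 1.23, or 0.72 without them. Usf1, a transcription factor that binds a Bdnf promoter in rodents, was 4.51 ± 3.04 in low-sodium neurons and 5.62 ± 2.43 in chow neurons, a difference of -1.11, or -1.30 without the high-sum neurons.

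Among genes induced by BDNF in other neurons, 2 of 15 measured were lower (13.3%, against 6.55% of all genes) and 0 higher. Spry2, an inhibitor of receptor tyrosine kinase signalling, was 0.54 ± 1.28 in low-sodium neurons and 2.44 ± 2.34 in chow neurons, detected in 6 of 32 and 20 of 33 neurons. Its difference was -1.90, or -1.76 without the high-sum neurons. Vgf was 3.50 ± 3.31 in low-sodium neurons and 4.65 ± 2.32 in chow neurons, a difference of -1.15, or -0.32 without the high-sum neurons. Fosb, an immediate early transcription factor, was 3.56 ± 3.28 in low-sodium neurons and 2.76 ± 2.97 in chow neurons.

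Plat, Spry2, Usf1 and Bhlhe40 were lower by at least 1 in low-sodium neurons both with and without the high-sum neurons. Of the astrocyte markers, Slc1a3 was detected in 6 of 32 low-sodium and 17 of 33 chow neurons, Aqp4 in 6 and 14, Gja1 in 5 and 14 and Sox9, a transcription factor of astrocytes, in 3 and 9. Slc1a2 was detected in 22 low-sodium and 16 chow neurons, and Gfap in 9 and 8. At least 3 ependymal markers were above 10 CPM in 2 low-sodium and 7 chow neurons, and at least 3 endothelial markers in 1 and 4, while astrocyte-marked neurons numbered 12 and 13. Among neurons with no such set of non-neuronal markers (14 low-sodium and 15 chow), a comparison added after the values were seen, the difference was -1.81 for Plat, -0.92 for Spry2, -0.27 for Usf1 and -1.30 for Bhlhe40. With the high-sum neurons also left out, that of Usf1 was 0.06. With a pseudocount of 10 CPM, that of Plat was -1.05 and those of the other 3 were under 1 in size. The part of non-neuronal transcripts in these differences was not tested.

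**Figure D5:**
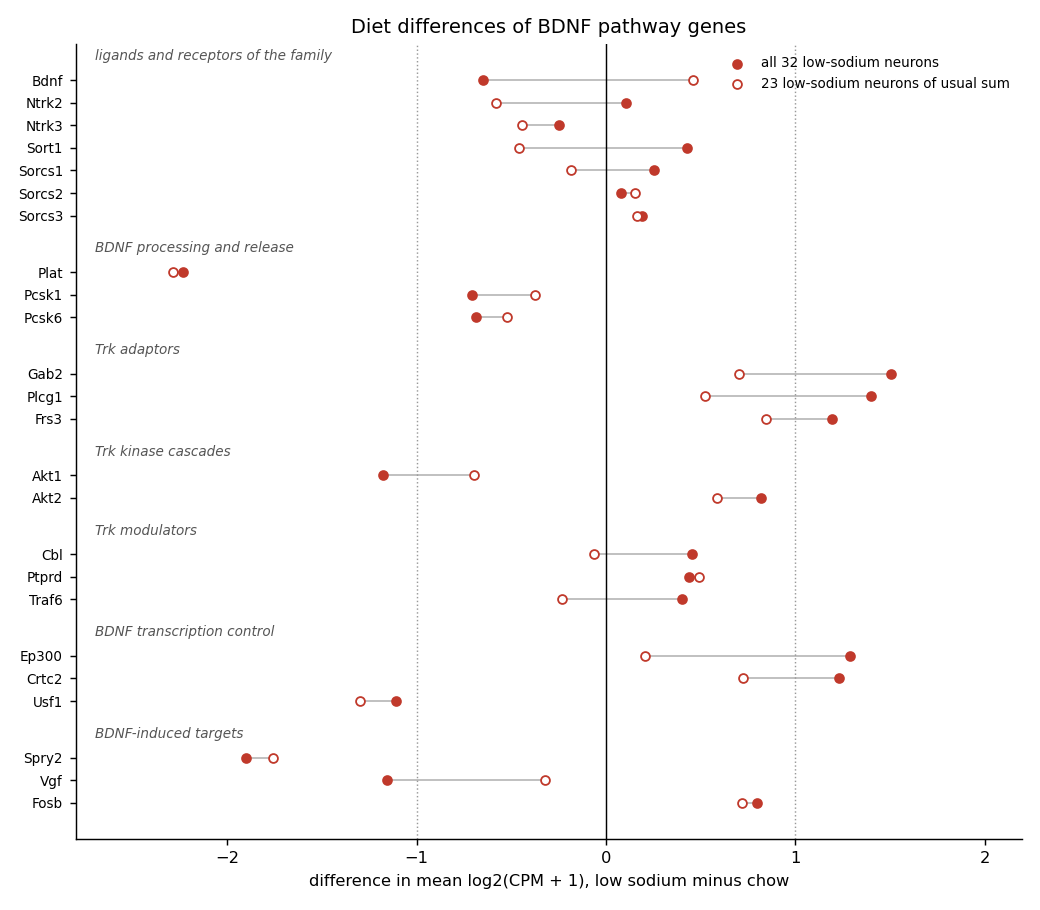
Difference in mean log2(CPM + 1), low sodium minus chow, of the members and of other named pathway genes, with all 32 low-sodium neurons (filled) and with the 23 of usual sum (open), dotted lines at -1 and 1. Bdnf lies at -0.65 with and at 0.46 without the high-sum neurons, whereas Plat and Spry2 stay below -1.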

How the data were processed

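The authors deposited 1 table of log2(CPM + 1) by gene and neuron. The submitters' processing notes name HISAT2 2.0.5, featureCounts 1.4.6, Picard 2.5.0, SAMtools 0.1.19 and bcl2fastq with the builds mm10 and GRCm38. Settings, annotation and scaling total were not given in the sources used here. All 12015 lines of the table were read, each gene above 0 in at least 5 neurons. Lines that share a name (121) or carry serial numbers (19) were left out, except from totals. Undoing the log gave CPM. The smallest CPM step of each neuron was taken as 1 read, and in each neuron at least 97% of values up to 20 steps were whole within 0.1 steps.

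The members, lists and limits were chosen with earlier results of these data known. The genes named are the members, the measured ligands and receptors, up to 3 genes of each other list by size of diet difference among those in at least 16 neurons, and the 5 genes most like each member. Sos2, Bhlhe40 and single markers lie outside this rule and were named with their values known, and some genes the rule took are not reported here. Alternatives were pseudocounts of 10 and 0.1 CPM, 2 other scalings, thinning to 50000 reads, medians, mean CPM, filters on neurons and leaving each neuron out. Python 3.11.15, numpy 2.4.6, pandas 2.3.3, scipy 1.17.1 and matplotlib 3.10.9 were used. Diet differences of well-expressed genes were checked on simulated neurons, each scaled to its own reads. That check does not cover the scale of the high-sum neurons or the many zeros of a gene such as Bdnf.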

Additional observations from a re-analysis of the deposited data

Results flagged for a closer look

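Ntrk3 in the high-sum neurons was marked by 1 cell far from the others. It was at 0 in low-sodium neuron 51, while the other 8 had 6.75 to 9.00, and the gap to the nearest was 0.75 of the whole range, above Dixon's limit of 0.493 for 9 values. Neuron 51 has 218805 reads, the fewest of the 9, and Bdnf at 0 with Ntrk2 at 9.79. Chance marks about 1 in 20 such groups.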

How the results depend on the processing

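No paired analysis was possible because the neuron numbers in the labels only name cells and no comparison between groups comes from a test. Over 187 alternative values, including 6 for comparisons added after the values were seen, 176 counted as the same, 11 moved and 0 were reversed. A difference counted as the same if it shifted by less than the SD over neurons, which was 2.90 for Bdnf by diet. It could be reversed only if at least 1 in size, which no diet difference of a member was. Shares were held to their 95% intervals, and rhos and counts to fixed limits. The count of 176 is therefore no measure of stability. The share of high-sum neurons with Ntrk3 was 100% without neurons under 6000 genes, and the share of chow neurons with all 3 members was 63.6% after thinning to 50000 reads. Spearman's rho moved to 0.0207 (without high-sum neurons) and 0.0695 (chow alone) for Bdnf with Ntrk2, to 0.0905 and 0.178 for Bdnf with Ntrk3, and to 0.0589 (cells scaled to the same sum) and -0.0727 (chow alone) for Ntrk2 with Ntrk3. Pathway genes higher by 1 in low-sodium neurons numbered 0 without high-sum neurons and 2 with a pseudocount of 10 CPM, which left 1 gene lower. The cause was not tested. Leaving out 1 neuron at a time gave diet differences of -0.83 to -0.51 for Bdnf, 0.00016 to 0.32 for Ntrk2 and -0.46 to -0.035 for Ntrk3, and without high-sum neurons 0.26 to 0.70, -0.68 to -0.32 and -0.66 to -0.15. Between high-sum and other low-sodium neurons it gave -4.53 to -3.75, 2.18 to 2.78 and 0.41 to 1.58, where the last is without neuron 51. Over the other alternatives that difference ran from -6.09 (median over neurons) to -1.39 (no neurons with non-neuronal markers) for Bdnf and from 1.59 (same sum) to 3.13 for Ntrk2. Scaling to the same sum moved the median of all genes in it to -0.58, and that of the diet difference to -0.26. The diet difference of Bdnf was -1.10 with a pseudocount of 0.1 CPM. Diet differences under 1 changed sign for Bdnf (0.32) and Ntrk3 (0.09) as the ratio of mean CPM, for Ntrk2 at the same sum (-0.13) and after thinning (-0.39), and as medians over neurons for Ntrk2 (-0.05) and Ntrk3 (0.10). Without high-sum neurons, that of Bdnf was -0.31 once neurons with non-neuronal markers were also left out. Depth limits a Bdnf count of 0 to the levels given with it.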
